A study of Mus musculus with 52 samples.

Results

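Metformin in the drinking water was set against plain water in gastrocnemius muscle of aged mice that had reloaded their hind legs for 14 d after hindlimb unloading. The comparison took the 4 libraries whose titles name metformin at 14 d of reloading and the 4 whose titles name the control at that time, which makes 8 of the 52 libraries in the series, and it was read across all genes. All 8 came from male C57BL/6 mice of 22 to 24 months that had been unloaded and then reloaded. The metformin mice drank metformin and the water mice drank only water. The labels state neither the dose nor when the drink began. Libraries are called metformin 1, 2, 5 and 6 and water 1, 3, 4 and 5 after the replicate numbers of their titles, and values per library are given in that order.

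The whole series holds 13 groups of 4: ambulatory mice on water, and mice on water, metformin, leucine or both in unloading, at 7 d and at 14 d of reloading. Hindlimb unloading takes the weight off the hind legs so that the muscle wastes, and reloading returns it. Its title concerns satellite cells and matrix remodelling under metformin with leucine, and metformin alone is 1 of the 3 drinks set against water. Each library is total RNA from a piece of whole muscle, made with a stranded kit that removes ribosomal RNA.

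Metformin is a diabetes drug that lowers glucose output by the liver. It is known to slow complex I of the mitochondrial respiratory chain, and the resulting fall in cellular energy activates the kinase AMPK. AMPK in turn favours glucose uptake and fat oxidation and restrains the growth kinase mTORC1, which leucine activates.

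The 8 libraries held 16344540 to 24974617 counts, with 19581343 to 24974617 in metformin and 16344540 to 22797190 in water. Levels are CPM, read counts scaled by each library's total and its TMM factor, and a gene counted as changed at a Benjamini-Hochberg adjusted p under 0.05 in edgeR's quasi-likelihood test. The tissue label was checked against Ckm, Acta1, Myh4, Mylpf, Tnnt3, Pvalb and Atp2a1, which summed to 85500 to 118000 CPM in metformin and 89500 to 126000 CPM in water. In bulk muscle, fewer cells of a type and less RNA per cell cannot be told apart. The p-values of edgeR rest on a spread shared by all 52 libraries in 13 groups, not on these 8 alone. Each library is taken as 1 mouse.

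Before the results, some features separated the libraries as a whole. The water group stood apart in the 5.8S ribosomal RNA gene n-R5-8s1, an RNA that the kit is designed to remove. It had 23, 18.1, 11.6 and 21 CPM in metformin, against 0.796, 0.783, 0.294 and 0.998 CPM in water, and 11.3 ± 3.37 CPM (SD, n = 4) in ambulatory mice. The metformin and water libraries did not overlap, and the ambulatory mean lay nearer to metformin. Liver transcripts, the marker list of another tissue, were uneven: all 14 were tested and 0 passed, with all 14 log2 fold changes negative and a median of -2.29. Their summed level was 4.56, 26.3, 14.6 and 21.4 CPM in metformin and 10.5, 16.3, 10.2 and 152 CPM in water, so that water 5 alone was high. Markers of progenitor, fat and Schwann cells gave 0 calls too, with sums of 421 to 569, 1360 to 2050 and 46.7 to 64.1 CPM in metformin and 528 to 660, 1090 to 1540 and 38.9 to 104 CPM in water. Only Ucp1, the defining gene of brown fat, was at 0 in all 8. Changed genes made up 5.12% of all genes tested, so short lists such as these can hold 0 calls. Alb, serum albumin, reached 77.0 CPM in water 5 and 8.49 CPM in metformin 2, and was under 1 CPM in the other 6.

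At 14 d, 853 of 16668 genes tested differed between metformin and water, which is 5.12%. Of these, 257 were higher with metformin (1.54% of genes tested) and 596 were lower (3.58%). Among named genes, the higher were led by n-R5-8s1, red cell transcripts and RNAs of the mitochondrial genome, and the lower included enzymes of glycogen and glucose breakdown, fast fibre proteins, nutrient-sensing regulators, proteasome subunits and cytosolic ribosomal proteins. The libraries of the groups did not overlap in 733 of the 853 (4.4% of all genes tested), and in 2963 (17.8%) of all genes whether called or not. DESeq2 called 1339 genes and limma voom 3896.

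The count of 853 depended on single libraries and on features of the libraries. It was 41 without water 3, 64 without water 4, 72 without metformin 6, 266 without metformin 1 and 362 without metformin 2, and between 671 and 955 without each of the others. The lean towards lower genes turned in some of these: 52 were higher and 20 lower without metformin 6, 24 and 17 without water 3, and 35 and 29 without water 4. It stayed but was slight in others, with 418 higher and 443 lower without water 1 and 129 and 137 without metformin 1. With no filter on low counts, 93 were higher and 102 lower. Of the 97 genes named here 82 passed, of which 22 were kept in all 8 omissions. Of the 82, 58 were lost without metformin 6, 58 without water 3, 57 without water 4, 37 without metformin 1, 27 without metformin 2, 11 without metformin 5, 12 without water 1 and 10 without water 5. Where omissions are given below for several genes together, they are those that all of them share, and some of the genes were lost in more. With the log2 CPM of n-R5-8s1 as a covariate 0 genes were called by edgeR and 601 had an unadjusted p under 0.05. Since n-R5-8s1 did not overlap between the groups, its share in the differences and that of the drink cannot be told apart. GC content also moved with direction: off the mitochondrial genome, the 238 genes that rose had a median GC content of 45% and those that fell 55.1%, beside 48.7% over all genes tested. With a GC term per library, an alternative chosen after seeing the data, 440 genes were called, 185 of them higher and 255 lower, and 344 of these were among the 853.

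**Figure D1:**
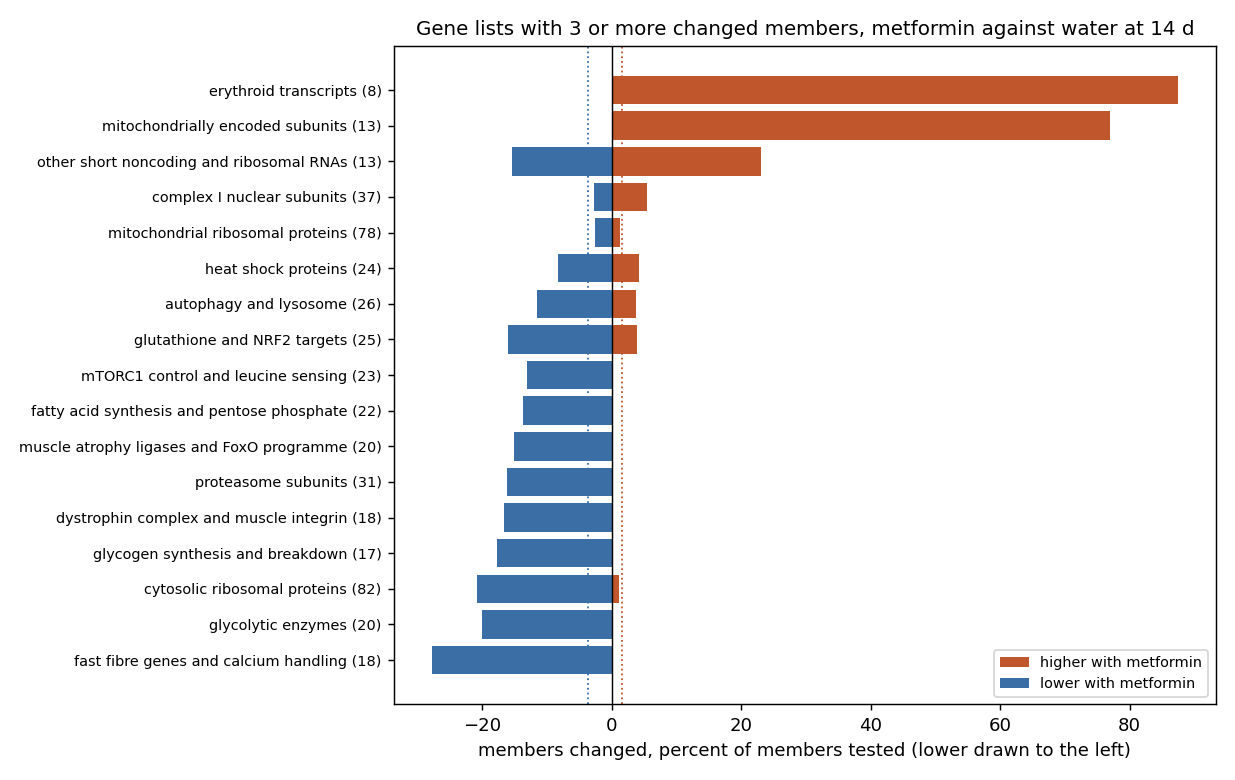
Share of the tested members of each gene list that were higher (right, orange) or lower (left, blue) with metformin than with water at 14 d, for lists with 3 or more changed members; the number of members tested stands in brackets and dotted lines mark the shares over all genes, 1.54% higher and 3.58% lower. Erythroid transcripts and mitochondrially encoded subunits stand to the right, and most of the other lists to the left.

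RNAs of the mitochondrial genome were higher with metformin. The genome encodes 13 subunits of the respiratory chain, and 10 of these rose and 0 fell, beside 1.54% higher over all genes tested. Their median log2 fold change was 1.28, beside -0.01 over all genes tested. mt-Co3, mt-Nd3 and mt-Atp8 did not pass the test. Mitochondrial RNA took 27.4, 20.2, 17.5 and 22.8% of the counts in metformin, against 10.9, 8.31, 8.97 and 11.7% in water. Every metformin library lay above every water library, with means of 22.0 ± 4.24% and 9.96 ± 1.58% (SD, n = 4 each) and a two-sided exact permutation p of 0.0286, the smallest that 4 against 4 can give. The ambulatory group had 16.3 ± 1.25% (SD, n = 4), between them.

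mt-Co2, a catalytic subunit of cytochrome c oxidase, had 414, 457, 258 and 639 CPM in metformin, against 63.1, 67.6, 63.9 and 72.3 CPM in water. The groups were far apart and the metformin libraries spread more widely (log2 fold change 2.73 ± 0.44 SE, adjusted p = 0.000783). mt-Atp6, a subunit of the proton channel of ATP synthase, averaged 409 ± 134 CPM with metformin and 88.8 ± 9.58 CPM with water (SD, n = 4 each). Its log2 fold change was 2.20 ± 0.43 (SE, adjusted p = 0.00445). mt-Nd4l, a small membrane subunit of complex I, rose by 2.07 ± 0.44 on the log2 scale (adjusted p = 0.00923), a call that was lost without water 3 or water 4 (adjusted p up to 0.0569).

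The subunits named next had higher counts and moved less than those above. mt-Nd2 of complex I averaged 26700 ± 6500 CPM in metformin and 9810 ± 1850 CPM in water (SD, n = 4 each), a log2 fold change of 1.45 ± 0.27 (SE, adjusted p = 0.00301). mt-Cytb, the cytochrome of complex III, averaged 28800 ± 6880 CPM and 11700 ± 1670 CPM in the same order, a log2 fold change of 1.29 ± 0.24 (SE, adjusted p = 0.00211). The groups did not overlap in either gene. Copies of mitochondrial genes in the nuclear genome can share reads with these transcripts, so single gene values are uncertain. On the same strand mt-Atp6 overlaps mt-Atp8 and mt-Co3, mt-Nd4l overlaps mt-Nd4 and mt-Nd2 overlaps mt-Tw. Counts of these genes may therefore not follow the abundance of their RNAs.

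The ribosomal RNAs of the mitochondrion were also higher. mt-Rnr1, the small subunit RNA, had 34600, 22300, 19100 and 26800 CPM in metformin, against 4360, 3590, 3950 and 4910 CPM in water. mt-Rnr2, the large subunit RNA, had 25400, 14700, 12500 and 18100 CPM in metformin, against 3190, 2130, 2490 and 3610 CPM in water. No libraries overlapped, and log2 fold changes were 2.61 ± 0.33 (SE, adjusted p = 5.62e-06) and 2.63 ± 0.39 (SE, adjusted p = 0.000181). These RNAs are targets of the removal step too, and they took 4.0 ± 0.999% of counts in metformin and 0.738 ± 0.138% in water (SD, n = 4 each). Left out, the remaining mitochondrial RNA still took 18 ± 3.25% and 9.23 ± 1.45% (SD, n = 4 each; exact permutation p = 0.0286). How far removal of ribosomal RNA enters the mitochondrial values was not tested beyond the n-R5-8s1 covariate, under which the log2 fold change of mt-Co2 was 1.51 and that of mt-Nd2 0.62, with neither passing.

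**Figure D2:**
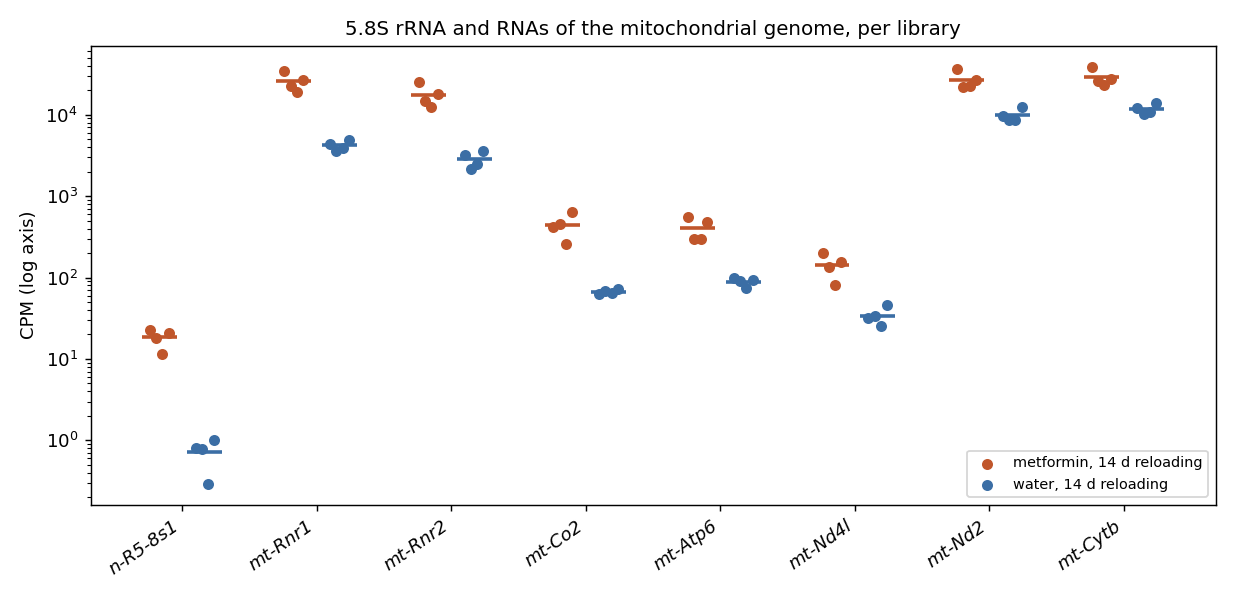
CPM on a log axis for n-R5-8s1 and 7 RNAs of the mitochondrial genome in each library at 14 d, with metformin in orange on the left of each pair and water in blue; horizontal lines are means of 4 libraries. All metformin points lie above all water points of the same gene, with n-R5-8s1 means of 18.4 and 0.718 CPM.

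Other short RNAs moved in both directions. mt-Tr, the mitochondrial arginine transfer RNA, had 4.76, 2.91, 3.25 and 3.20 CPM with metformin and 1.10, 0.636, 0.647 and 0.998 CPM with water (log2 fold change 2.05 ± 0.52 SE, adjusted p = 0.0203). Rpph1, the RNA of ribonuclease P, had 119, 157, 150 and 97.4 CPM with metformin and 472, 368, 489 and 201 CPM with water (log2 fold change -1.55 ± 0.44 SE, adjusted p = 0.0348). The groups did not overlap in either. Scarna10, a guide RNA of Cajal bodies, fell with a log2 fold change of -1.17 ± 0.28 (SE, adjusted p = 0.0176), with 1 metformin library reaching 11.3 CPM and 1 water library at 10.9 CPM. The calls of mt-Tr and Scarna10 were lost without metformin 6, water 3 or water 4, that of mt-Tr also without metformin 1 and under the GC term, and that of Rpph1 in 7 of 8 omissions (adjusted p up to 0.14).

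Most nuclear genes of respiration did not pass. Of 37 nuclear complex I subunits 2 rose and 1 fell, with a median log2 fold change of 0.07. In the other complexes 2 of 40 rose and 0 fell, with a median of 0.04. Of 30 genes of the citric acid cycle and fat oxidation 2 rose and 0 fell, with a median of 0.22. Against 1.54% higher over all genes tested, 2 of 37, 2 of 40 and 2 of 30 are larger shares, but each rests on 2 genes. The share lower over all genes tested was 3.58%.

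Cox6c, a nuclear subunit of cytochrome c oxidase, had 498, 368, 320 and 390 CPM with metformin and 185, 160, 171 and 198 CPM with water. Ndufa5, an accessory subunit of complex I, had 89.8, 70.7, 62.7 and 73.4 CPM with metformin and 40.9, 35.6, 36.4 and 39.4 CPM with water. Both were higher in every metformin library, with log2 fold changes of 1.14 ± 0.27 (SE, adjusted p = 0.015) and 0.96 ± 0.26 (SE, adjusted p = 0.0248). Ndufa13 rose by 0.59 ± 0.17 and the ATP synthase subunit Atp5h by 0.68 ± 0.20 on the log2 scale (SE, adjusted p = 0.0348 and 0.037). Ndufa7, another accessory subunit of complex I, fell, with 16.3 ± 1.64 CPM in metformin and 25.8 ± 4.21 CPM in water (SD, n = 4 each; log2 fold change -0.66 ± 0.19 SE, adjusted p = 0.0308). Idh3b, a subunit of the isocitrate dehydrogenase of the citric acid cycle, rose by 0.62 ± 0.16 (SE, adjusted p = 0.0248), and Acadl, which starts the oxidation of long-chain fatty acids, by 0.87 ± 0.26 (SE, adjusted p = 0.0421) with overlapping libraries. All 7 calls were lost without water 3 or water 4 and all but that of Cox6c also without metformin 1 or metformin 6 (adjusted p up to 0.146), and those of Atp5h and Acadl under the GC term. Cox6c, Ndufa13 and Idh3b overlap a gene on the other strand, and their values are uncertain because the counting's strand setting is unknown here.

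Of 11 AMPK subunits and upstream kinases 0 rose and 0 fell by edgeR, with a median log2 fold change of -0.13. Over all genes tested 1.54% were higher and 3.58% lower, so 0 of 11 is near the share of all genes. Prkaa2, the catalytic subunit that predominates in muscle, averaged 447 ± 48.2 CPM in metformin and 469 ± 48.7 CPM in water (SD, n = 4 each; log2 fold change -0.07 ± 0.12 SE, adjusted p = 0.776). Prkaa1, the other catalytic subunit, had a log2 fold change of 0.28 ± 0.10 (SE, adjusted p = 0.0644), and Stk11, the upstream kinase, one of -0.31 ± 0.10 (SE, adjusted p = 0.0528). Both passed with DESeq2 (adjusted p = 0.0236 for Prkaa1 and 0.0383 for Stk11) and with voom (0.0096 and 0.000613). Under the GC term neither passed, with log2 fold changes of 0.09 for Prkaa1 and 0.10 for Stk11 (adjusted p = 0.651 and 0.625). Stk11 also passed from the 8 libraries only (0.0386) and without water 5 (0.0391), and Prkaa1 without metformin 5 (0.0406) and without water 1 (0.0345). Slc22a5, a carnitine carrier of the organic cation family that also holds metformin carriers, had 5.16 ± 0.793 CPM in metformin and 6.73 ± 2.09 CPM in water (SD, n = 4 each; adjusted p = 0.253). None of the 4 tested carriers of that family passed, beside 5.12% of all genes tested.

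Targets of PPAR and genes of fuel choice had a median log2 fold change of 0.46 over 18 genes, with 15 positive. By edgeR 0 of them passed, beside 1.54% higher and 3.58% lower over all genes tested. Ppargc1a, the coactivator of mitochondrial genes, had 179, 130, 69.0 and 63.0 CPM with metformin and 131, 44.9, 46.3 and 58.1 CPM with water (log2 fold change 0.65 ± 0.29 SE, adjusted p = 0.157). Pdk4, which switches muscle from glucose to fat, had 1310, 1850, 681 and 534 CPM with metformin and 1190, 664, 468 and 440 CPM with water (log2 fold change 0.66 ± 0.41 SE, adjusted p = 0.331). Libraries overlapped in both, and water 1 lay above the other water libraries. Lpl, lipoprotein lipase, which takes up fat from blood, was also highest in water 1 among the water libraries, with 946, 800, 290 and 825 CPM with metformin and 576, 140, 195 and 185 CPM with water (log2 fold change 1.38 ± 0.44 SE, adjusted p = 0.0528). Without water 1, Lpl and Ppargc1a passed (log2 fold changes 2.07 and 1.18, adjusted p = 0.0136 and 0.0176), as did Lpl without metformin 5 (adjusted p = 0.0312). With voom both passed (adjusted p = 0.000825 and 0.00705), and Lpl also with DESeq2 (adjusted p = 0.0258).

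Enzymes that break down glycogen and glucose were lower with metformin where they passed. Of 20 glycolytic enzymes 0 rose and 4 fell, with a median log2 fold change of -0.32. Of 17 genes of glycogen synthesis and breakdown 0 rose and 3 fell, with a median of -0.32. Against 3.58% of all genes tested, 4 of 20 and 3 of 17 are larger shares.

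Pfkm, the muscle phosphofructokinase that commits sugar to glycolysis, had 1650, 1620, 1620 and 1390 CPM with metformin and 2110, 2490, 2320 and 2290 CPM with water. Aldoa, the aldolase of muscle, had 4510, 5120, 5130 and 3850 CPM with metformin and 6350, 8290, 8170 and 6210 CPM with water. All metformin libraries lay below all water libraries in both. Their log2 fold changes were -0.55 ± 0.13 (SE, adjusted p = 0.0164) and -0.64 ± 0.15 (SE, adjusted p = 0.0176). Pfkfb4, a regulator of phosphofructokinase, averaged 17.4 ± 2.45 CPM with metformin and 31.7 ± 3.55 CPM with water (SD, n = 4 each; log2 fold change -0.87 ± 0.22 SE, adjusted p = 0.0203).

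Pygm, the glycogen phosphorylase of muscle, had 3710, 4160, 4660 and 3380 CPM with metformin and 5190, 7040, 6430 and 6050 CPM with water. It fell without overlap of the groups (log2 fold change -0.64 ± 0.18 SE, adjusted p = 0.0295). Pgm1, which links glycogen to glycolysis, fell by 0.56 ± 0.15 (SE, adjusted p = 0.0256), and Gyg, the protein primer of glycogen, fell by 0.42 ± 0.12 (SE, adjusted p = 0.0301). Slc16a3, the carrier that exports lactate from glycolytic fibres, had 46.9, 56.4, 51.7 and 30.2 CPM with metformin and 86.5, 134, 131 and 84.3 CPM with water. It showed the largest change among the sugar genes named here, with a log2 fold change of -1.24 ± 0.33 (SE, adjusted p = 0.0247). All 7 calls named among sugar genes were lost without metformin 6, water 3 or water 4 (adjusted p up to 0.142), and those of Pfkm, Aldoa and Pygm also under the GC term (adjusted p = 0.1, 0.0827 and 0.0976). Pfkm, Aldoa and Pgm1 overlap genes on the other strand.

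The fast fibre genes that passed fell, while Myh1 was the only myosin gene to pass by edgeR and rose. Of 18 genes of fast fibres and calcium handling 0 rose and 5 fell, with a median log2 fold change of -0.40, beside 1.54% higher and 3.58% lower over all genes tested. Myoz1, a Z-disc protein of fast fibres, had 299, 364, 385 and 264 CPM with metformin and 581, 765, 805 and 523 CPM with water. Pvalb, the calcium buffer of fast fibres, had 1090, 1780, 1760 and 1150 CPM with metformin and 1990, 2880, 2980 and 2160 CPM with water. The groups were apart in both genes, with log2 fold changes of -1.03 ± 0.25 (SE, adjusted p = 0.0176) and -0.79 ± 0.22 (SE, adjusted p = 0.0325). Jsrp1, a protein of the junction that releases calcium, fell by 0.70 ± 0.17 (SE, adjusted p = 0.0193) with overlapping libraries, and Ckm, the muscle creatine kinase, by 0.56 ± 0.18 (SE, adjusted p = 0.0499). Each of these 4 calls was lost without metformin 1, metformin 6, water 3 or water 4 (adjusted p up to 0.195), and those of Jsrp1 and Ckm under the GC term.

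Among myosin heavy chains and slow fibre genes, 17 of 18 had a positive log2 fold change, with a median of 1.33, but only Myh1 passed by edgeR. Myh1, the heavy chain of fast IIx fibres, had 5130, 3960, 2240 and 3550 CPM with metformin and 2560, 692, 1040 and 1390 CPM with water. The groups overlapped through metformin 5 and water 1 (log2 fold change 1.39 ± 0.42 SE, adjusted p = 0.046), the call was lost in 6 of 8 omissions (adjusted p up to 0.167), and a long RNA lies on the other strand. Myh4, the heavy chain of fast IIb fibres, averaged 54200 ± 9050 CPM with metformin and 53700 ± 8800 CPM with water (SD, n = 4 each), with no sign that held across the settings tried. Myh7, the slow heavy chain, had 414, 427, 445 and 964 CPM with metformin and 378, 0.881, 132 and 147 CPM with water. The water libraries spanned a wide range, and the difference did not pass (log2 fold change 1.77 ± 1.13 SE, adjusted p = 0.345), though it did with voom (log2 fold change 3.95, adjusted p = 0.0242).

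Regulators of nutrient sensing that passed were lower with metformin. Of 23 genes of mTORC1 control and leucine sensing 0 rose and 3 fell, with a median log2 fold change of -0.13, and of 20 targets of the stress factor ATF4 0 rose and 2 fell, with a median of -0.27, beside 1.54% higher and 3.58% lower over all genes tested. Flcn, folliculin, which works with the Rag GTPases in amino acid signalling to mTORC1, had 26.9, 24.5, 18.1 and 21 CPM with metformin and 42.5, 38.2, 38.4 and 34.7 CPM with water. Its libraries did not overlap, and its call was kept without any 1 of the 8 libraries (log2 fold change -0.76 ± 0.16 SE, adjusted p = 0.00713, at most 0.048 in the omissions). Eif4ebp1, a repressor of translation that mTORC1 switches off, had 10.1, 13, 11.3 and 10.9 CPM with metformin and 19.7, 22.9, 20.5 and 16.6 CPM with water (log2 fold change -0.82 ± 0.20 SE, adjusted p = 0.0202). Akt1s1, an inhibitory partner of mTORC1, fell by 0.63 ± 0.20 (SE, adjusted p = 0.0492), with overlapping libraries.

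Atf4, the transcription factor that raises amino acid synthesis and transport under stress, had 38.7, 47, 41.9 and 34 CPM with metformin and 56.4, 64.9, 68.9 and 60.0 CPM with water. It was lower in every metformin library (log2 fold change -0.63 ± 0.13 SE, adjusted p = 0.00584). Ppp1r15a, a phosphatase subunit that ends the stress response, had 16.5, 13.1, 12.2 and 11.2 CPM with metformin and 23, 19.1, 27 and 19.4 CPM with water (log2 fold change -0.74 ± 0.18 SE, adjusted p = 0.0175). Without metformin 6 the calls of Atf4, Ppp1r15a, Eif4ebp1 and Akt1s1 were lost (adjusted p at most 0.197 over all omissions), that of Ppp1r15a also without water 3 or 4, that of Eif4ebp1 also without water 3, water 4 or metformin 1, and that of Akt1s1 in 7 of 8 omissions. Under the GC term Atf4, Ppp1r15a and Akt1s1 did not pass (adjusted p = 0.0511, 0.162 and 0.375). Akt1s1 and Ppp1r15a overlap a gene on the other strand.

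Flcn on chromosome 11 and Ppp1r15a on chromosome 7 are shown with the 250 bases before their start sites, since both fell and both hold the cAMP response element TGACGTCA there. Flt1, which rose, also holds the element in its promoter and is not shown. The sequences are from RefSeq on GRCm38.p6 and read 5′ to 3′ on the minus strand, with the element in capitals. It begins 49 bases before the start of Flcn and 12 bases before that of Ppp1r15a.
Flcn promoter, chr11:59810040-59810289, minus strand: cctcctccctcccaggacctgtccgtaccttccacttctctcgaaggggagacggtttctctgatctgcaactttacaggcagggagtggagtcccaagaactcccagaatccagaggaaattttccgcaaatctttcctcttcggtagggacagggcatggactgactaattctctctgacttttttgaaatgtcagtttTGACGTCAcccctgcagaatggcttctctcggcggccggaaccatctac
Ppp1r15a promoter, chr7:45526269-45526518, minus strand: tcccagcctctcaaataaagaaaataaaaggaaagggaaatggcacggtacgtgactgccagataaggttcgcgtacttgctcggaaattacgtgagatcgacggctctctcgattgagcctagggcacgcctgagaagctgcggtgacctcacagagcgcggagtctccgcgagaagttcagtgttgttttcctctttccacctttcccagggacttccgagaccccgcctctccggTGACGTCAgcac

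Of the changed genes named here, 64 had a promoter of 300 bases in the RefSeq table. The element was held by 3 of these (Flcn and Ppp1r15a, which fell, and Flt1, which rose), beside 1.79% of 32851 promoters. The E-box CACGTG was present in 7 of 64, beside 7.15%, and the amino acid response element TGATGNAA in 2 of 64 (Srgn and Ubb), beside 3.97%. The paired glucocorticoid element was present in 0 of 64, beside 0.00913%. Both strands were searched, and none of the 64 promoters held more than 1 of the 4 motifs. A match is a description of these letters and not a site of binding.

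Among genes of insulin signalling, autophagy and lipid synthesis, all that passed except Lamp2 were lower with metformin. Of 22 genes of insulin signalling and glucose uptake 0 rose and 2 fell, beside 3.58% lower over all genes tested. Irs2, an adaptor of the insulin receptor, had 29.2, 36.7, 27.7 and 26.1 CPM with metformin and 52.8, 51.8, 55.6 and 51.5 CPM with water. The groups were apart and the water libraries close together (log2 fold change -0.82 ± 0.20 SE, adjusted p = 0.0176). Foxo3, a transcription factor that insulin restrains, averaged 33.8 ± 3.92 CPM and 45.3 ± 4.26 CPM (SD, n = 4 each; log2 fold change -0.42 ± 0.13 SE, adjusted p = 0.0465) in metformin and water, while its relative Foxo1 averaged 37.9 ± 7.72 CPM and 36.8 ± 2.59 CPM (SD, n = 4 each; adjusted p = 0.922).

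Of 26 genes of autophagy and the lysosome 1 rose and 3 fell, with a median log2 fold change of -0.20, beside 1.54% higher and 3.58% lower over all genes tested. Tfeb, the master regulator of lysosomal genes, had 15.2, 20.1, 23.1 and 16.9 CPM with metformin and 36, 45.7, 44.7 and 29.7 CPM with water. Sqstm1, the receptor that delivers tagged proteins to autophagy, had 201, 218, 198 and 154 CPM with metformin and 281, 325, 288 and 259 CPM with water. Neither gene's groups overlapped, with log2 fold changes of -1.05 ± 0.26 (SE, adjusted p = 0.0182) and -0.58 ± 0.12 (SE, adjusted p = 0.00878). Gabarap, which coats autophagosomes, fell by 0.60 ± 0.17 (SE, adjusted p = 0.0289), and Lamp2, a lysosomal membrane protein, rose by 0.45 ± 0.13 (SE, adjusted p = 0.0373). Of 22 genes of fatty acid synthesis and the pentose phosphate pathway 0 rose and 3 fell, beside the same shares. Srebf1, the regulator of fat synthesis, averaged 13 ± 4.53 CPM with metformin and 27.4 ± 6.7 CPM with water (SD, n = 4 each; log2 fold change -1.07 ± 0.33 SE, adjusted p = 0.048). Taldo1, transaldolase, fell by 0.55 ± 0.15 (SE, adjusted p = 0.0263).

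All calls among the insulin, autophagy and lipid genes were lost without metformin 6 or water 3, and all but that of Sqstm1 also without water 4, and that of Foxo3 in each of the 8 omissions (adjusted p up to 0.185). The call of Srebf1 was lost in 7 of 8 omissions. Under the GC term Foxo3, Lamp2, Srebf1 and Taldo1 did not pass. Irs2, Sqstm1 and Srebf1 overlap a gene on the other strand.

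Genes of protein turnover that passed were lower with metformin, apart from Rpl19. Of 31 proteasome subunits 0 rose and 5 fell, with a median log2 fold change of -0.11. Of 82 cytosolic ribosomal proteins 1 rose and 17 fell, with a median of -0.23, against 3.58% lower over all genes. Psmb5, a catalytic subunit of the proteasome core, had 10.6, 11, 9.09 and 9.32 CPM with metformin and 23.3, 20.8, 20.6 and 14.3 CPM with water. Psmb4, another subunit of the core, had 11.5, 12.9, 10.7 and 11.5 CPM with metformin and 21.9, 23.2, 21.4 and 15.8 CPM with water. In both the metformin libraries were close together and below all water libraries, with log2 fold changes of -0.98 ± 0.20 (SE, adjusted p = 0.00584) and -0.82 ± 0.16 (SE, adjusted p = 0.00367). Both calls were kept in every omission (adjusted p at most 0.0392 and 0.0409), and Psmb3 fell by 0.54 ± 0.12 (SE, adjusted p = 0.00878) but was lost without metformin 6, water 3 or water 4 (at most 0.0828).

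Ubb, a ubiquitin gene, had 129, 131, 116 and 101 CPM with metformin and 172, 212, 213 and 171 CPM with water. It was lower in all metformin libraries, and its call was kept in every omission (log2 fold change -0.69 ± 0.12 SE, adjusted p = 0.00135). Of 20 genes of the atrophy programme 0 rose and 3 fell, beside 3.58% lower over all genes tested. Among the 3 was Fbxo31, a ubiquitin ligase subunit, with a log2 fold change of -0.77 ± 0.20 (SE, adjusted p = 0.023). Its call was lost without metformin 1, metformin 6, water 3 or water 4 (at most 0.117). The main ligases of muscle wasting did not pass. Trim63 had 204, 159, 120 and 93.5 CPM with metformin and 167, 173, 186 and 160 CPM with water (log2 fold change -0.25 ± 0.25 SE, adjusted p = 0.58). Fbxo32 had 598, 369, 369 and 306 CPM with metformin and 393, 653, 494 and 593 CPM with water (log2 fold change -0.38 ± 0.23 SE, adjusted p = 0.314).

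Rpl15 of the large ribosomal subunit had 30.8, 33.5, 36.1 and 26.9 CPM with metformin and 52.2, 59.4, 58.4 and 44.1 CPM with water (log2 fold change -0.75 ± 0.13 SE, adjusted p = 0.00139). Rpl9, of the same subunit, had 30.2, 32.1, 32.5 and 29.8 CPM with metformin and 42.4, 46.8, 50 and 45.3 CPM with water (log2 fold change -0.57 ± 0.11 SE, adjusted p = 0.00367). The groups did not overlap in either, and Rplp2, a protein of the ribosomal stalk, fell by 0.76 ± 0.16 (SE, adjusted p = 0.00584). These 3 calls were kept without any 1 of the libraries and under the GC term. Rpl19 went the other way, with 77.6, 75.7, 78.2 and 76.3 CPM in metformin and 46.8, 49.2, 52.9 and 53.5 CPM in water (log2 fold change 0.60 ± 0.19 SE, adjusted p = 0.048), a call that was lost in each of the 8 omissions (at most 0.128). Ribosomal protein genes have many pseudogene copies that can share their reads, and Rpl15 overlaps a gene on the other strand.

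Redox enzymes were mixed. Of 25 genes of glutathione metabolism and the NRF2 response 1 rose and 4 fell, beside 1.54% higher and 3.58% lower over all genes tested. Gstp1 and Gstp2, neighbouring and near-identical glutathione transferases between which reads can be split, fell together. Gstp1 had 15.9, 14.5, 18 and 13.7 CPM with metformin and 29.1, 34.1, 35.3 and 22.0 CPM with water, and Gstp2 averaged 3.68 ± 0.712 CPM and 8.87 ± 2.08 CPM (SD, n = 4 each). The groups did not overlap, and both calls were kept in every omission (log2 fold changes -0.96 ± 0.19 and -1.27 ± 0.23 SE, adjusted p = 0.00435 and 0.00211). Gpx4, which removes lipid peroxides, fell by 0.76 ± 0.20 (SE, adjusted p = 0.0251), and Cat, catalase, rose by 0.68 ± 0.20 (SE, adjusted p = 0.0379) with overlapping libraries. Both calls were lost without metformin 1, metformin 6, water 3 or water 4 (at most 0.151) and under the GC term.

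Red cell transcripts rose with metformin. Of 8 erythroid genes 7 rose and 0 fell, with a median log2 fold change of 3.68, beside 1.54% higher over all genes tested. Their summed level was 64.8 to 132 CPM with metformin and 58.0 to 70.5 CPM with water, and how much blood the tissue held was not tested. Hbb-bs, an adult beta globin, had 5.51, 4.83, 12.8 and 35.5 CPM with metformin and 1.19, 0.685, 1.53 and 1.39 CPM with water. The groups were apart, with the metformin group led by libraries 5 and 6 (log2 fold change 3.61 ± 0.65 SE, adjusted p = 0.00232). This call was kept in every omission (at most 0.0353). Hbb-bt, its neighbouring copy, had 0.351, 0.374, 1.12 and 2.44 CPM with metformin and 0, 0, 0 and 0.174 CPM with water (adjusted p = 0.00584).

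Hba-a1, an alpha globin, had 0.551, 0.250, 1.46 and 2.49 CPM with metformin and 0.0498, 0.147, 0 and 0.0868 CPM with water (log2 fold change 3.89 ± 0.89 SE, adjusted p = 0.0137). Alas2, the first enzyme of heme synthesis in red cells, had 4.11, 3.66, 11.5 and 20.7 CPM with metformin and 2.09, 1.76, 2.00 and 2.52 CPM with water (log2 fold change 2.24 ± 0.58 SE, adjusted p = 0.0234). Metformin 5 and 6 were again highest. Ube2l6, an enzyme of ubiquitin-like conjugation, and Tent5c, a poly(A) polymerase, were also highest in metformin 5 and 6, with log2 fold changes of 1.84 ± 0.49 (SE, adjusted p = 0.0263) and 1.70 ± 0.50 (SE, adjusted p = 0.04). Without metformin 6 the calls of Hbb-bt, Hba-a1, Alas2, Ube2l6 and Tent5c were lost, and without water 3 or water 4 those of the last 4 (adjusted p up to 0.2), and under the GC term that of Tent5c (adjusted p = 0.0612). Globin copies share reads, and Alas2 overlaps Apex2 on the other strand.

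**Figure D3:**
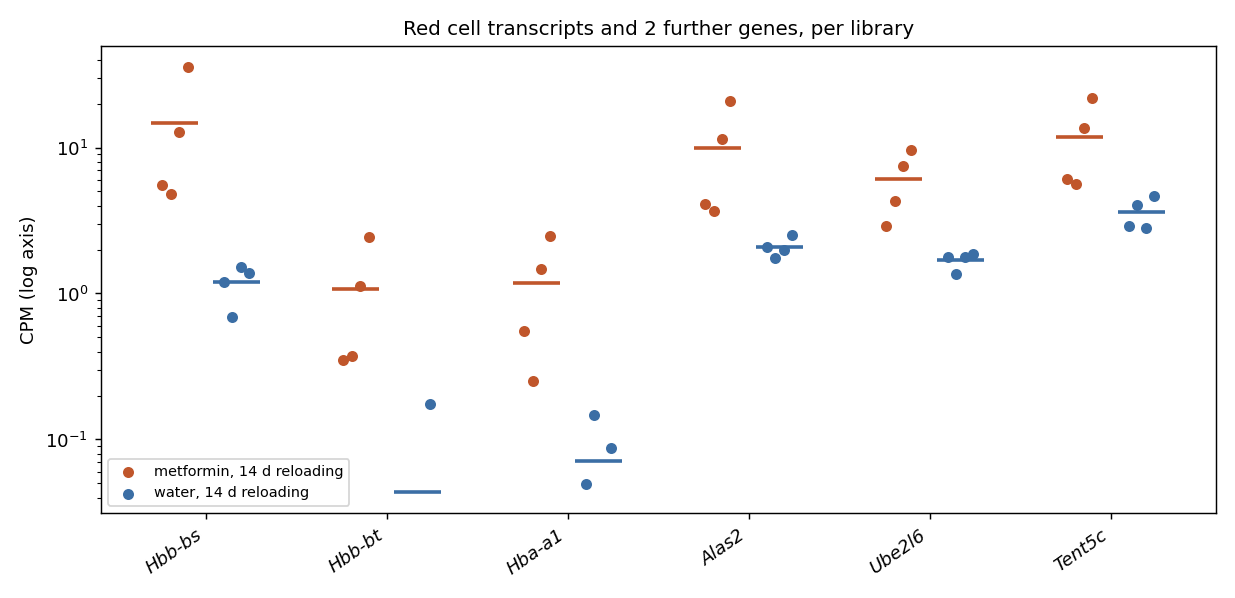
CPM on a log axis for 4 red cell genes and for Ube2l6 and Tent5c in each library at 14 d, with metformin in orange on the left of each pair and water in blue; horizontal lines are means of 4 libraries, and libraries at 0 are not drawn (3 water libraries for Hbb-bt and 1 for Hba-a1). Every metformin library lies above every water library, up to 35.5 CPM of Hbb-bs.

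Immune and endothelial genes were higher where they passed. Of 18 macrophage markers 1 rose, beside 1.54% higher over all genes tested. A positive log2 fold change was found for 17, and the median was 0.88. Their summed level was 72.2 to 154 CPM with metformin and 52.6 to 98.0 CPM with water. Cd163, the hemoglobin scavenger receptor of resident macrophages, had 9.12, 22.2, 15.8 and 16.9 CPM with metformin and 11.9, 6.41, 6.59 and 5.82 CPM with water (log2 fold change 1.06 ± 0.32 SE, adjusted p = 0.0428). The groups overlapped through metformin 1 and water 1. Srgn, the proteoglycan of blood cell granules, had 16.5, 15.2, 11.7 and 17.9 CPM with metformin and 8.86, 4.70, 6.30 and 7.81 CPM with water, and its call was kept in every omission and under the GC term (log2 fold change 1.15 ± 0.20 SE, adjusted p = 0.0014).

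B2m, the light chain of class I antigen presentation, had 100, 130, 141 and 135 CPM with metformin and 60.5, 58.1, 63.0 and 73.2 CPM with water. It rose without overlap (log2 fold change 0.99 ± 0.24 SE, adjusted p = 0.0177), as did Fyb, a T cell and myeloid adaptor, with 4.94 ± 1.3 CPM and 1.39 ± 0.361 CPM (SD, n = 4 each; log2 fold change 1.83 ± 0.46 SE, adjusted p = 0.0202). Of 17 endothelial markers 2 rose and 0 fell, beside 1.54% higher and 3.58% lower over all genes tested. Emcn rose by 0.60 ± 0.16 (SE, adjusted p = 0.0276) and the VEGF receptor Flt1, with overlapping libraries, by 0.43 ± 0.13 (SE, adjusted p = 0.0435). The endothelial markers summed to 471 to 652 CPM with metformin and 447 to 653 CPM with water. The calls of Cd163, B2m, Fyb, Emcn and Flt1 were lost without metformin 6, water 3 or water 4 (adjusted p up to 0.159), and those of Cd163 and Emcn under the GC term.

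Most muscle stem cell, junction and matrix genes did not pass. Of 24 satellite cell and myogenic genes 0 rose and 2 fell, beside 3.58% lower over all genes tested. Myod1, the factor that commits muscle precursors, had 4.91, 8.70, 8.42 and 4.83 CPM with metformin and 12, 13, 12.9 and 13.7 CPM with water. Cdh15, the cadherin of satellite cells, had 7.71, 7.45, 7.01 and 4.25 CPM with metformin and 11.3, 13.9, 12.4 and 10.7 CPM with water. Neither gene's groups overlapped, with log2 fold changes of -0.94 ± 0.28 (SE, adjusted p = 0.0422) and -0.87 ± 0.20 (SE, adjusted p = 0.0128). Pax7, the marker of satellite cells, had 0.952, 1.17, 1.63 and 1.58 CPM with metformin and 2.49, 2.54, 2.35 and 2.39 CPM with water, and did not pass (log2 fold change -0.88 ± 0.28 SE, adjusted p = 0.0531), though it did with DESeq2 (adjusted p = 0.0346), voom (0.00399) and the 8 libraries only (0.0269).

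Rapsn, which clusters acetylcholine receptors at the nerve contact, had 4.01, 4.87, 2.92 and 4.21 CPM with metformin and 6.87, 10.1, 9.71 and 6.42 CPM with water (log2 fold change -1.04 ± 0.27 SE, adjusted p = 0.0238). It was the only 1 of 19 junction genes to pass, beside 1.54% higher and 3.58% lower over all genes tested. Of 18 genes of the dystrophin complex and muscle integrin 0 rose and 3 fell, beside 3.58% lower over all genes tested, among them Dysf, which repairs the fibre membrane (log2 fold change -0.65 ± 0.16 SE, adjusted p = 0.0203). The groups did not overlap in Rapsn or Dysf. Calls of Myod1, Cdh15, Rapsn and Dysf were lost without metformin 6, water 3 or water 4 (adjusted p up to 0.171), and those of Myod1 and Cdh15 under the GC term. That of Myod1 was lost in 7 of 8 omissions.

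In the matrix, 1 gene rose and 1 fell among 29 that encode fibrillar collagens or other matrix proteins, near the 1.54% higher and 3.58% lower over all genes tested. Bgn, biglycan, had 49, 87.1, 61.0 and 110 CPM with metformin and 55.7, 22.6, 26.4 and 48.3 CPM with water, with 1 pair of libraries crossing (log2 fold change 1.00 ± 0.30 SE, adjusted p = 0.0454). Col5a3, a minor fibrillar collagen, averaged 9.34 ± 1.48 CPM with metformin and 17.9 ± 1.94 CPM with water (SD, n = 4 each; log2 fold change -0.93 ± 0.25 SE, adjusted p = 0.0269). Lama5, a laminin chain of the basement membrane, fell by 0.84 ± 0.25 (SE, adjusted p = 0.0435). Col1a1, the main fibrillar collagen, had 28.5, 54.2, 21 and 85.9 CPM with metformin and 95.8, 22.5, 23.4 and 41.9 CPM with water. Its groups overlapped throughout (log2 fold change 0.05 ± 0.53 SE, adjusted p = 0.966). Prg4, the lubricant of tendon and joint surfaces, had 14.4, 24.8, 10.8 and 58.6 CPM with metformin and 14.1, 3.33, 5.83 and 8.42 CPM with water (log2 fold change 1.78 ± 0.49 SE, adjusted p = 0.0302). The tendon and joint list summed to 127 to 566 CPM with metformin and 95.2 to 388 CPM with water, and the part of tendon in the pieces was not tested. Its groups overlapped, and Prg4, like Ckm, Rapsn, Dysf and Fyb, overlaps an annotated gene on the other strand. The calls of Bgn, Col5a3, Lama5 and Prg4 were lost without metformin 2, metformin 6, water 3 or water 4 (adjusted p up to 0.221). Those of Col5a3 and Lama5 were each lost in 7 of 8 omissions and under the GC term.

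In other lists, most or all genes did not pass. Of 19 clock genes 0 passed, with a median log2 fold change of -0.32 and 16 negative. Of 18 genes of myostatin and activin signalling, 20 of branched-chain amino acid breakdown and 17 of the glucocorticoid response 0 passed, with medians of -0.08, -0.01 and -0.10. Of 78 mitochondrial ribosomal proteins 1 rose and 2 fell (median -0.02), and of 24 heat shock proteins 1 rose and 2 fell (median 0.26). Over all genes tested, 1.54% were higher and 3.58% lower.

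Further genes outside these groups had among the smallest p or largest changes. Fam20c, a secretory pathway kinase, had 4.11, 4.49, 7.07 and 5.50 CPM with metformin and 11.9, 10.7, 13.7 and 10.7 CPM with water (log2 fold change -1.15 ± 0.19 SE, adjusted p = 0.000533). Pebp1, an inhibitor of Raf kinase, had 29.1, 33.5, 27.3 and 26.4 CPM with metformin and 58.1, 57.8, 62.7 and 44.1 CPM with water (log2 fold change -0.94 ± 0.18 SE, adjusted p = 0.00344). Both were lower in every metformin library, and with Pip5k1a, a lipid kinase (log2 fold change -0.58 ± 0.11 SE, adjusted p = 0.0029), they were kept in every omission and under the GC term. Rasd2, a small GTPase, fell by 1.39 ± 0.33 (SE, adjusted p = 0.0176) and Slc26a6, an anion exchanger, by 1.34 ± 0.32 (SE, adjusted p = 0.0176), both lost without metformin 6, water 3 or water 4 (at most 0.0983). Ube2c, a ubiquitin enzyme of mitosis, rose by 2.27 ± 0.41 (SE, adjusted p = 0.00211), and also at 7 d, by 2.90 (adjusted p = 4.06e-05), but it lies opposite Tnnc2, a troponin gene of fast fibres, and is uncertain.

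The difference between metformin and water libraries at 14 d was unlike that at 7 d of reloading. At 7 d, 23 genes differed between metformin and water (0.138% of 16668), with other mice in both groups. The difference between the 2 effects passed for 2413 genes (14.5%), with 982 (5.89%) higher and 1431 (8.59%) lower at 14 d. Of the 853 genes changed at 14 d, 777 were among these, 794 (93.1%) had the opposite sign at 7 d, and 12 had changed at 7 d. The difference between the effects contains the 14 d comparison by which the 853 were picked. The overlap of 777 is therefore partly given by that choice. Over all genes tested, 70.3% had opposite signs at these times. With n-R5-8s1 as a covariate the difference passed for 0 genes by edgeR (534 at an unadjusted p under 0.05), and with the GC term for 991. As n-R5-8s1 did not overlap between the groups at 7 d or 14 d, its share in these differences and that of the drink cannot be told apart. Without single libraries at 14 d the count was 1415 to 2453, lowest without water 3 (1415), water 4 (1486), metformin 6 (1538) and metformin 1 (1546).

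Of the 82 named genes that passed at 14 d, 76 had the opposite sign at 7 d. Hbb-bt, Alas2, Tent5c, Bgn, Cd163 and Ube2c kept their sign. n-R5-8s1 had a log2 fold change of -2.44 at 7 d (adjusted p = 0.0135) and 4.64 at 14 d. mt-Nd2 had -1.28 at 7 d (adjusted p = 0.0261) and 1.45 at 14 d, and mt-Cytb -1.14 (adjusted p = 0.0197) and 1.29. Among nuclear genes, 0.22 at 7 d and -0.55 at 14 d were found for Pfkm, 0.60 and -1.03 for Myoz1, 0.25 and -0.76 for Flcn, and -0.80 and 1.15 for Srgn. None of these 4 passed at 7 d, and the difference between the times passed for each (adjusted p between 3.76e-05 and 0.00769). They were picked for their change at 14 d, which enters that difference.

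In unloading, 0 of 16668 genes differed between metformin and water by edgeR, with 647 at an unadjusted p under 0.05, and DESeq2 called 14 and voom 0. The effect at 14 d differed from that in unloading for 4 genes (0.024%), all of them higher at 14 d. Named among them are n-R5-8s1 (difference 4.55 ± 0.62 SE, adjusted p = 8.35e-05), mt-Co2 (3.08 ± 0.60 SE, adjusted p = 0.0336) and mt-Rnr1 (2.48 ± 0.45 SE, adjusted p = 0.0102). Of the 853 genes, 278 (32.6%) had the opposite sign in unloading, beside 44.1% of all genes tested. This count of 4 ran from 2 (without metformin 1) to 9 (without metformin 5 or without water 1) as single libraries were left out.

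**Figure D4:**
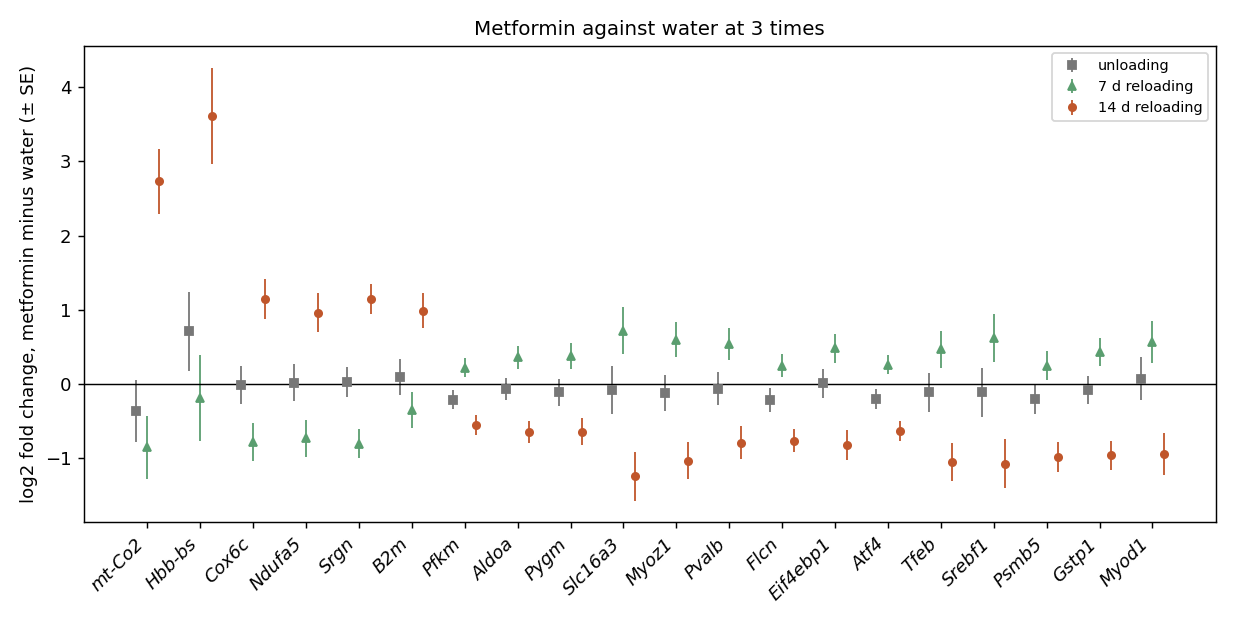
Log2 fold change of metformin minus water with its SE for 20 named genes in unloading (grey squares), at 7 d (green triangles) and at 14 d of reloading (orange circles), each from 4 libraries against 4. Values at 7 d lie on the other side of 0 from those at 14 d for the 20 genes drawn, for example -0.85 and 2.73 for mt-Co2, and for 76 of the 82 named genes that passed at 14 d.

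Against ambulatory mice on water, the metformin group at 14 d differed in 0 of 16668 genes by edgeR (1336 at an unadjusted p under 0.05), in 1 by DESeq2 and in 93 by voom. The water group at 14 d differed from them in 29 genes by edgeR (0.174%), 295 by DESeq2 and 2959 by voom. These comparisons share libraries with the main one and with each other, so their values are set side by side only. Flcn averaged 22.7 ± 3.87 CPM in metformin, 38.4 ± 3.16 CPM in water and 27.1 ± 1.6 CPM in ambulatory mice (SD, n = 4 each). Pygm averaged 3980 ± 556, 4380 ± 472 and 6180 ± 776 CPM in metformin, ambulatory and water mice (SD, n = 4 each). mt-Nd2 averaged 26700 ± 6500 CPM in metformin, 20500 ± 2080 CPM in ambulatory and 9810 ± 1850 CPM in water mice (SD, n = 4 each).

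At 14 d the leucine drink and the combined drink were set against the same water libraries, with 49 (0.294%) and 119 (0.714%) genes changed by edgeR, 188 and 202 by DESeq2, and 1345 and 3021 by voom. n-R5-8s1 had a log2 fold change of 4.64 with metformin, 4.68 with leucine and 5.04 with both. mt-Nd2 had 1.45, 1.27 and 1.22, and Flcn -0.76, -0.59 and -0.33 in the same order of drinks. Because the 3 comparisons share the water group, a feature of those 4 libraries enters all of them.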

How the data were processed

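RNA of gastrocnemius muscle was measured by stranded total RNA sequencing in 52 samples, of which 8 form the comparison. The authors deposited raw counts per Ensembl gene. GRCm38, STAR 2.7.3a, featureCounts 1.6.3 and DESeq2 1.30.0 are named per the submitters' processing notes, and the strand setting and annotation release are not given in the sources used here. Of 55487 identifiers 55141 matched GENCODE on GRCm38. Symbols held by several identifiers are represented by the one with the highest mean count.

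The filterByExpr function of edgeR 4.0.16 (R 4.3.3, minimum count 10) left 16668 genes. After TMM scaling, all 52 libraries entered a single robust quasi-likelihood fit of the 13 group means, with 39 residual degrees of freedom and a median SE of 0.227 for log2 fold changes. Benjamini-Hochberg adjustment ran over all genes tested. Interaction terms tested the metformin effect at 14 d against that at 7 d and in unloading. Gene lists are described by counts and medians. The steps were tested on simulated data.

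Named genes were taken from changed genes whose log2 CPM averaged 1 or more, whose groups stood apart in every library and whose name was not a predicted one: those with the largest changes or the smallest p. Changed members of each list with the smallest p were added without the conditions on level, overlap and name. A set of genes of AMPK, atrophy, fibre type and matrix was given whatever it did. Some genes the rule names are not reported here. The members and lists were chosen with earlier results of these data known. Alternatives were RLE factors, no filter, DESeq2 1.42.0, limma 3.58.1 voom with quality weights, the 8 libraries only, the fit without 2 combined-drink libraries at 14 d that stand apart, an n-R5-8s1 covariate, a replicate block, each library left out and, chosen after seeing the data, a GC term.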

Additional observations from a re-analysis of the deposited data

Results flagged for a closer look

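In 196 groups of 4 values checked, 12 had a library far from the other 3, and chance alone flags about 1 in 20 groups. In water 1, Acadl had 184 CPM, Gyg 179 CPM, Ppargc1a 131 CPM, Lpl 576 CPM and Cd163 11.9 CPM. In water 5, Alb had 77.0 CPM, Taldo1 14.5 CPM and Hbb-bt 0.174 CPM. In metformin 6, Pfkm had 1390 CPM and Myh7 964 CPM, in metformin 5 Cat had 53 CPM, and in metformin 2 Alb had 8.49 CPM.

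The difference between metformin and water libraries changed between times by a test of the change itself. It changed between 14 d and 7 d for 2413 genes and between 14 d and unloading for 4. With the n-R5-8s1 covariate both counts were 0, and the share of this RNA and that of the drink cannot be told apart. For 14 d minus 7 d the log2 difference was 7.07 for n-R5-8s1, 3.80 for Hbb-bs, 3.69 for mt-Rnr2, 3.68 for mt-Rnr1 and 3.58 for mt-Co2. It was -12.40 for Apoa1, -11.08 for Apob and -10.68 for Alb, which are liver transcripts carried at 7 d by metformin libraries 1 and 2. It was -4.42 for Pck1 and -4.39 for Fasn, which 1 metformin library at 7 d carried (127 CPM and 1080 CPM). For 14 d minus unloading it was 4.55 for n-R5-8s1, 3.08 for mt-Co2 and 2.48 for mt-Rnr1.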

How the results depend on the processing

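Of the 853 genes, RLE factors kept 709 among 740 calls, and other settings gave 195 with no filter, 1339 with DESeq2, 3896 with voom, 2188 from the 8 libraries only, 2292 without combined-drink libraries 1 and 6, 0 with the n-R5-8s1 covariate, 440 with the GC term and 41 to 955 with a library left out. The difference from 7 d, 2413 genes, became 1188 with no filter, 4707 with voom, 3735 without the combined-drink libraries, 0 with the covariate, 991 with the GC term and 1415 to 2453 with a library left out. The difference from unloading, 4 genes, became 7 with RLE, 7 with no filter, 28 with DESeq2, 881 with voom, 149 without the combined-drink libraries, 0 with the covariate and 2 to 9 with a library left out. The cause of these shifts was not tested.

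The groups share only numbers 1 and 5, whose deviations correlated at 0.04 and 0.04, while pairs of unlike number ran from -0.40 to 0.29. So few shared numbers cannot decide whether the numbers pair the mice, and the main fit took no pairing. A replicate block gave 431 genes, 1978 for the difference from 7 d and 5 for that from unloading.

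Of 97 genes named, 82 passed, and 22 of these did so with every library left out. Of the named genes that did not pass, 4 did so without combined-drink libraries 1 and 6. With no filter 42 calls were lost, with the replicate block 23, with the GC term 24, from the 8 libraries only 8, with RLE 5, with DESeq2 or voom 0, and with the covariate all 82. Among the 82 is n-R5-8s1, whose own loss was fixed in advance because it is the covariate. Hbb-bt and Hba-a1 had no result with DESeq2 or from the 8 libraries only, and are not counted there. Signs turned with the covariate for mt-Tr (-1.03), Ndufa13 (-0.09), Atp5h (-0.02), Prkaa2 (0.02), Slc22a5 (0.03), Ppargc1a (-0.33), Pdk4 (-0.74), Myh4 (-0.17), Foxo1 (-0.52), Rpl19 (-0.21) and Myod1 (0.02), with the GC term for Stk11 (0.10), with voom for Myh4 (-0.05) and Alb (0.25), and with the block for Myh4 (-0.02). With a library left out, log2 fold changes ran from -0.09 to 0.13 for Myh4, -0.05 to 0.18 for Foxo1, -0.38 to 0.72 for Col1a1 and -5.62 to 2.80 for Alb.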
